A study of Homo sapiens with 12 samples.

Results

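Chromatin remodellers and histone-modifying enzymes were followed in A673 cells, a line of Ewing sarcoma with a rearrangement that joins EWSR1 to FLI1, a transcription factor of the ETS family. The set was a list of 45 gene symbols, all of which were found among the 18404 genes measured, with the brightest probe set standing for each gene. It holds 8 CHD remodellers, 1 ISWI remodeller, 11 subunits of the SWI/SNF complexes, 10 histone demethylases, 4 genes of Polycomb repressive complex 2 (PRC2), 6 other histone methyltransferases, 2 acetyltransferases and 3 deacetylases. RNA was hybridized to 12 Affymetrix Gene 1.0 ST arrays, 2 for each of 6 groups. Cells infected with a lentivirus carrying FLI1 shRNA were compared with cells given lacZ shRNA, aimed at a bacterial gene, at 48 h and after puromycin selection, with 1 hairpin for each target. Uninfected cells were left untreated (0 h), or were given DMSO, 5 nM actinomycin D or 50 nM actinomycin D for 24 h. All 6 groups are of this single cell line and carry the fusion.

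Remodellers of the CHD, ISWI and SWI/SNF families use ATP to slide or evict nucleosomes, and the other enzymes add or remove acetyl and methyl groups on histone tails that mark active or silent genes. The fusion protein, EWS-FLI1, binds GGAA sequences and is known to work together with SWI/SNF complexes, the acetyltransferase EP300 and the NuRD corepressor, while PRC2, through EZH2, silences differentiation genes in Ewing sarcoma. Actinomycin D is a DNA-binding drug that intercalates beside GpC steps and blocks RNA polymerases, with the nucleolar RNA polymerase the most sensitive.

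Values are log2 signals after RMA, a method that gives every array the same distribution of probe signals before they are summarized per probe set. A fall common to every transcript is therefore not visible, and in RNA of a whole culture fewer cells of a type and less RNA per cell cannot be told apart. After the summary, array medians ran from 6.67 to 6.83. Arrays of a group correlated at 0.994 to 0.996 over all genes, and the residual SD of the 45 genes ran from 0.02 to 0.16 with a median of 0.06. FLI1 read 7.30 and 7.08 with FLI1 shRNA, against 8.63 and 8.45 with lacZ shRNA, a log2 change of −1.35 ± 0.09 (adjusted p = 5.4e-06, limma). FLI1 also read lower at 50 nM, at 7.71 and 7.60, against 8.59 and 8.61 in DMSO, while at 5 nM it read 8.50 and 8.55. All 6 measured markers of Ewing sarcoma lay above the median gene, against 0 of 6 blood markers, 2 of 6 epithelial markers and 1 of 7 endothelial markers. Below, ± is a standard error with 2 arrays a group, and rose or fell means an adjusted p under 0.05 over all 18404 genes. DMSO and low-dose cells were treated in duplicate according to the methods. For the other groups the sources used here do not say whether the 2 arrays came from separate cultures, so the p-values cover the spread of these arrays alone, part of which may be technical.

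Actinomycin D lowered most of the genes at both doses. At 5 nM, 36 of the 45 were lower than in DMSO, 4 were higher and 5 did not pass the test, where 23.0% of all genes were lower and 30.3% higher. At 50 nM, 33 were lower, 3 were higher and 9 did not pass, where 23.3% of all genes were lower and 25.8% higher. The median log2 change of the 45 genes was −0.85 at 5 nM and −0.73 at 50 nM, against 0.12 and 0.10 over all genes tested. A stricter threshold, a fall over 2-fold with an adjusted p under 0.01, was met by 17 of the 45 at 5 nM and 15 at 50 nM, where 7.86% and 5.38% of all genes passed that threshold. The 2 doses were set against the same 2 DMSO arrays, so errors of those arrays enter both. Centring the arrays on 59 ribosomal protein genes moved the median of all genes to −0.24 at 5 nM and −0.17 at 50 nM, and 41 of the 45 then fell and 0 rose at either dose, where 45.3% of all genes fell and 8.99% rose at 5 nM and 39.3% fell and 4.88% rose at 50 nM.

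**Figure D1:**
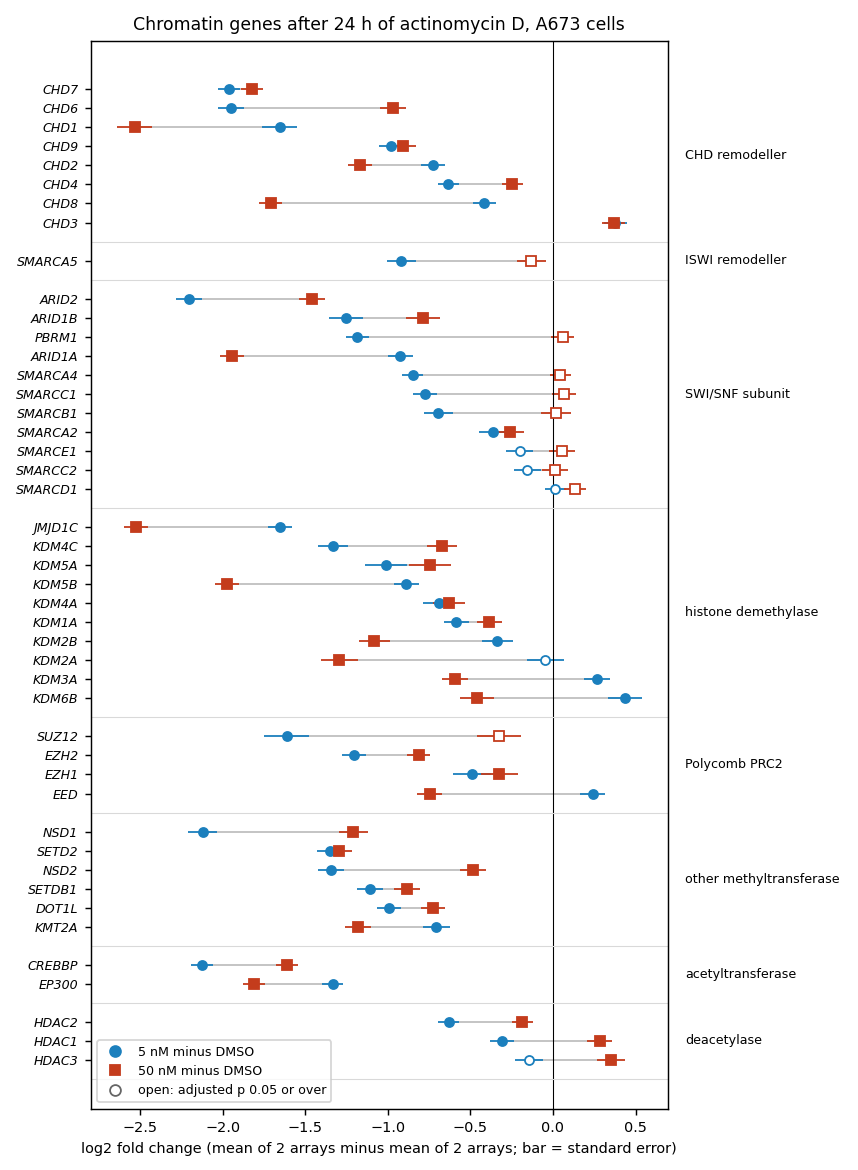
Log2 fold change of each of the 45 genes at 5 nM (blue circles) and 50 nM (red squares) actinomycin D against DMSO, 2 arrays a group, with the standard error as a bar and open symbols where the adjusted p was 0.05 or over. Most symbols lie left of 0, and the order of the doses differs between genes: CHD1, CHD8, ARID1A, JMJD1C and KDM5B lie lower at 50 nM, whereas PBRM1, SMARCA4, SUZ12 and NSD1 lie lower at 5 nM.

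Set against each other, the doses gave no single order. At 50 nM 21 of the 45 were higher than at 5 nM, 13 were lower and 11 did not pass, against 21.6% of all genes higher and 23.1% lower. With dim genes left out, 21 of 44 were higher and 13 lower, against 31.9% of 11042 genes higher and 34.6% lower. The stricter threshold was met by 4 genes that were lower at 50 nM, namely CHD8, ARID1A, KDM2A and KDM5B, and 2 that were higher, namely PBRM1 and SUZ12, where 6.65% of all genes met it downwards and 4.33% upwards. Among the 45, demethylases were mostly lower at the higher dose, 6 of 10 with 1 higher. The listed SWI/SNF subunits were mostly higher, 7 of 11 with 1 lower, as were all 3 listed deacetylases. Genes of these families outside the list did not share that order. Of 12 further demethylases 2 were lower and 6 higher, and of 15 further SWI/SNF subunits 6 were lower and 2 higher. Of 20 further deacetylases and corepressors 7 were lower and 7 higher. The 5 nM arrays enter both this comparison and that with DMSO. With a trend in gene span removed from each array, 20 of the 45 were higher at 50 nM and 17 lower. Of 16897 genes, 32.3% were then higher and 26.1% lower.

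Among the CHD remodellers 7 of 8 fell and CHD3 rose at each dose. CHD1, which reads methylated H3K4 at active genes, read 9.98 and 10.00 in DMSO, 8.52 and 8.15 at 5 nM and 7.45 and 7.47 at 50 nM. Its arrays stepped down with dose without overlap, by 1.65 ± 0.11 and 2.53 ± 0.11 log2 units below DMSO, and only 2 of the 18404 genes fell further at 50 nM. CHD8, a regulator of Wnt and neurodevelopmental genes, read 9.72 and 9.64 in DMSO, 9.29 and 9.23 at 5 nM and 8.02 and 7.92 at 50 nM. The change was −0.42 ± 0.07 at the low dose and −1.71 ± 0.07 at the high dose, a difference between doses of −1.29 ± 0.07 (adjusted p = 9.9e-08). CHD2, a paralogue of CHD1, followed the same order, at 9.37 and 9.42 in DMSO, 8.71 and 8.62 at 5 nM and 8.25 and 8.20 at 50 nM (−0.73 ± 0.07 and −1.17 ± 0.07).

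CHD6, of the same subfamily as CHD7, showed the reverse order, at 9.08 and 8.99 in DMSO, 7.05 and 7.12 at 5 nM and 8.13 and 8.00 at 50 nM. It fell by 1.95 ± 0.08 at 5 nM and by 0.97 ± 0.08 at 50 nM, and the higher dose lay above the lower by 0.98 ± 0.08 (adjusted p = 1.8e-06). CHD7, mutated in CHARGE syndrome, was about as low at both doses, at 8.91 and 8.94 in DMSO, 6.95 and 6.97 at 5 nM and 7.11 and 7.08 at 50 nM. The doses differed by 0.14 for CHD7 (95% confidence interval −0.01 to 0.28) and by 0.07 for CHD9 (−0.09 to 0.24), which read 10.21 and 10.19 in DMSO, 9.22 and 9.22 at 5 nM and 9.32 and 9.28 at 50 nM. CHD3 and CHD4, the ATPases of the NuRD complex, parted. CHD4 read 11.01 and 10.95 in DMSO, 10.37 and 10.32 at 5 nM and 10.73 and 10.73 at 50 nM, so its arrays were lowest at 5 nM (−0.63 ± 0.06, against −0.25 ± 0.06 at 50 nM, which did not pass without DMSO replicate 1). CHD3 read 9.90 and 9.98 in DMSO, 10.37 and 10.26 at 5 nM and 10.32 and 10.29 at 50 nM, and rose by 0.38 ± 0.07 and 0.37 ± 0.07. With ribosomal protein centring the rise of CHD3 did not pass at either dose (0.02 and 0.10). SMARCA5, the ATPase of the ISWI complexes, read 10.71 and 10.81 in DMSO, 9.96 and 9.72 at 5 nM and 10.69 and 10.56 at 50 nM. Its change from DMSO was −0.92 ± 0.09 at 5 nM, which passed, and −0.13 ± 0.09 at 50 nM, which did not, and the arrays at 50 nM lay 0.79 ± 0.09 above those at 5 nM (adjusted p = 2.3e-05).

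Stretches before the transcription start are shown for CHD1, the CHD member that fell furthest at 50 nM. Others are of the acetyltransferase CREBBP, which fell furthest at 5 nM among genes with a promoter in the table, and of CHD3, which rose. Each is the 250 bases before the start nearest the gene's 5′ end, 5′ to 3′ on the gene's strand, from RefSeq on GRCh38.p14 (chr5:98929008-98929257, minus strand; chr16:3880714-3880963, minus strand; chr17:7888539-7888788, plus strand). The CHD3 start is an internal one, 3993 bases inside the gene from its 5′ end, whereas those of CHD1 and CREBBP lie at that end. Capitals mark GpC steps, the letters GC, which read the same on both strands.
CHD1: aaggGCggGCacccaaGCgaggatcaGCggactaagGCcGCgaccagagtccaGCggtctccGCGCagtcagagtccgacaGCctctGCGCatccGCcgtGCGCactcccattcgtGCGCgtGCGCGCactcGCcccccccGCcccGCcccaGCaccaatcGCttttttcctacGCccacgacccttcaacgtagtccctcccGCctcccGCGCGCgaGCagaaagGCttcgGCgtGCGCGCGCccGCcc
CREBBP: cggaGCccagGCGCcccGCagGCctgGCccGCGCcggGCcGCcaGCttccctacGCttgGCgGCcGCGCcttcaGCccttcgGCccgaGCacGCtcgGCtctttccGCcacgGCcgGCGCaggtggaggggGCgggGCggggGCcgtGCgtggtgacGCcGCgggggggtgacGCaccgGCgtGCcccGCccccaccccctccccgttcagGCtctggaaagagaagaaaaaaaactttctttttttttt
CHD3: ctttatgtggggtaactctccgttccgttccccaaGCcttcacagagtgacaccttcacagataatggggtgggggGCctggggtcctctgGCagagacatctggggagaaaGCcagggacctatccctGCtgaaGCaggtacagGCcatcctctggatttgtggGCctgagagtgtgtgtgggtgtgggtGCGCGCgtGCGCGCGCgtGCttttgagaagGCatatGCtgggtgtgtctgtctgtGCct
The windows of CHD1, CREBBP and CHD3 hold 38, 36 and 19 such steps. A RefSeq promoter was in the table for 39 of the 45 genes, 63 windows in all, and these windows (250 bases before to 50 after the start) hold a median of 34 GpC steps and 67.0% G and C, against 25 steps and 58.7% over all 35116 promoters of that length. Across the 39 genes, with the window nearest the 5′ end, Spearman's rho between GpC steps and the change was −0.29 at 5 nM and −0.13 at 50 nM, over values that share the DMSO arrays. The letters ATGCAT, read on both strands since they are their own reverse complement, were in 2 of the 63 windows (3.18%), against 3.95% of all promoters. These are descriptions of letters in a window and not of drug binding.

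The listed SWI/SNF subunits split at the higher dose. At 5 nM, 8 of 11 fell. At 50 nM, of these 11, only the 3 ARID subunits, which target the complexes to DNA, and the ATPase SMARCA2 were lower than DMSO. Of 15 further SWI/SNF subunits outside the list, 8 fell and 3 rose at 50 nM, with a median of −0.24. ARID1A read 10.35 and 10.35 in DMSO, 9.34 and 9.51 at 5 nM and 8.43 and 8.38 at 50 nM, stepping down with dose by 0.92 ± 0.07 and 1.94 ± 0.07 log2 units. Its paralogue ARID1B read 9.43 and 9.38 in DMSO, 8.04 and 8.27 at 5 nM and 8.52 and 8.72 at 50 nM, and was lowest at 5 nM. ARID2, which defines the PBAF form of the complex, read 10.74 and 10.76 in DMSO, 8.50 and 8.59 at 5 nM and 9.35 and 9.22 at 50 nM. Its fall at 5 nM, 2.20 ± 0.08, was the largest of the 45 genes and left 21.7% of the DMSO signal.

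Another PBAF subunit, PBRM1, read 9.98 and 9.96 in DMSO, 8.81 and 8.75 at 5 nM and 10.06 and 9.99 at 50 nM. Only the 5 nM arrays were low, by 1.18 ± 0.07, and the 50 nM arrays differed from DMSO by 0.06 (95% confidence interval −0.09 to 0.21). The ATPase SMARCA4 (BRG1) behaved in the same way, at 10.31 and 10.33 in DMSO, 9.48 and 9.47 at 5 nM and 10.39 and 10.34 at 50 nM. Its paralogue SMARCA2 (BRM) read 7.80 and 7.95 in DMSO, 7.56 and 7.47 at 5 nM and 7.71 and 7.52 at 50 nM, and the change at 50 nM, −0.26 ± 0.09 (adjusted p = 0.029), did not pass without DMSO replicate 2 or 50 nM replicate 2 (adjusted p = 0.20 at most, limma). Of the core scaffolds, SMARCC1 read 11.11 and 11.19 in DMSO, 10.42 and 10.33 at 5 nM and 11.22 and 11.21 at 50 nM, again low at 5 nM alone. SMARCC2, its paralogue, did not pass at either dose, at 10.23 and 10.13 in DMSO, 10.10 and 9.96 at 5 nM and 10.20 and 10.20 at 50 nM. SMARCB1, the core subunit lost in rhabdoid tumours, fell by 0.69 ± 0.09 at 5 nM and stood at 0.02 ± 0.09 from DMSO at 50 nM. The accessory subunits SMARCE1 (−0.20 and 0.06) and SMARCD1 (0.01 and 0.14) did not pass against DMSO at either dose. Direct contrasts put SMARCA4, SMARCC1, SMARCB1, PBRM1, ARID2, ARID1B and SMARCE1 higher at 50 nM than at 5 nM, by 0.26 to 1.24, and ARID1A lower by 1.02. The contrast of SMARCE1 did not pass without 5 nM replicate 2, 50 nM replicate 1 or 50 nM replicate 2 (adjusted p = 0.15 at most), nor with these 4 arrays fitted alone (adjusted p = 0.12). With ribosomal protein centring the small positive changes of SMARCA4, SMARCB1, SMARCC1, SMARCC2, SMARCE1 and PBRM1 at 50 nM turned negative (−0.26 to −0.20) and passed the test.

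**Figure D2:**
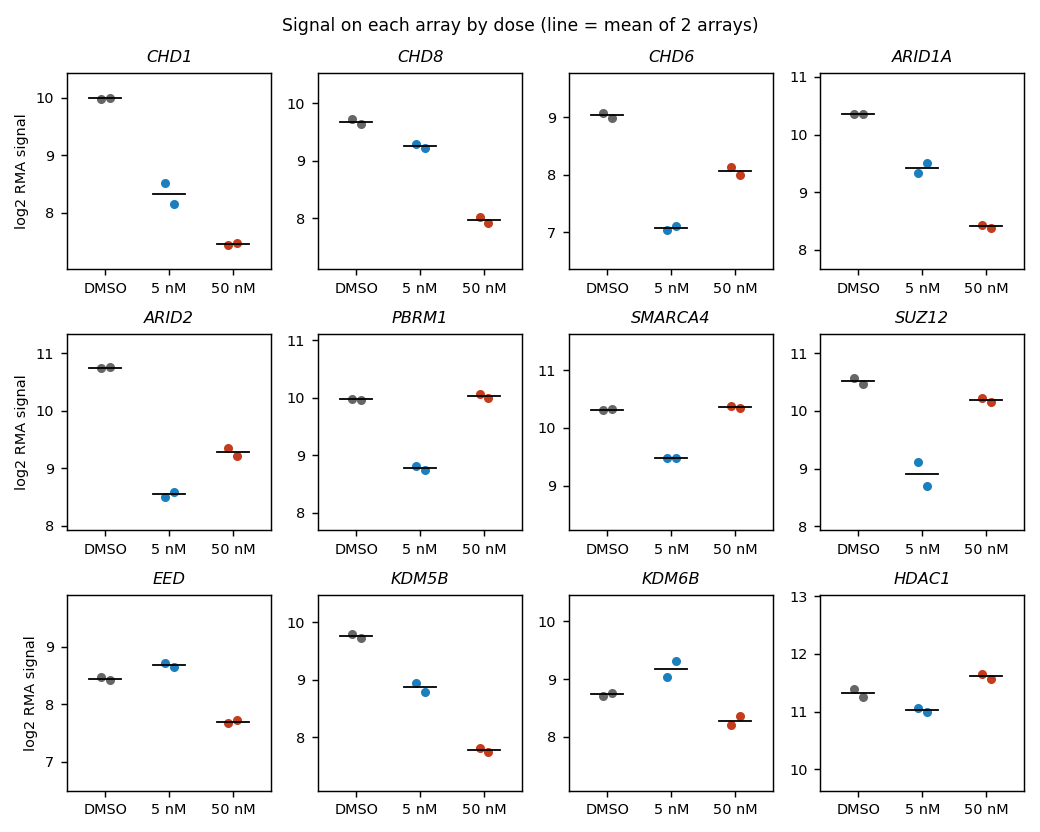
Log2 RMA signal of 12 of the genes on each array in DMSO, 5 nM and 50 nM actinomycin D (points), with the mean of the 2 arrays as a line. Every panel spans the same number of log2 units, centred on its own gene. CHD1, CHD8, ARID1A and KDM5B step down with dose, and PBRM1 and SMARCA4 are low at 5 nM and near DMSO at 50 nM. SUZ12 is lowest at 5 nM, with its 50 nM arrays between those and DMSO. EED, KDM6B and HDAC1 change side between doses.

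All 10 histone demethylases fell at 50 nM, whereas at 5 nM 7 fell, KDM3A and KDM6B rose and KDM2A did not pass. JMJD1C, a JmjC protein related to the H3K9 demethylase KDM3A, read 9.74 and 9.79 in DMSO, 8.18 and 8.04 at 5 nM and 7.27 and 7.22 at 50 nM. It stepped down with dose to 17.4% of the DMSO signal, next to CHD1 among the lowest changes of the 45. KDM5B, an eraser of H3K4 trimethylation, read 9.79 and 9.72 in DMSO, 8.94 and 8.79 at 5 nM and 7.81 and 7.75 at 50 nM. Its paralogue KDM5A read 8.95 and 8.77 in DMSO, 8.08 and 7.62 at 5 nM and 8.16 and 8.07 at 50 nM. KDM5A thus fell to a like level at both doses, which differed by 0.27 (95% confidence interval −0.01 to 0.55), while KDM5B lay 1.08 ± 0.08 lower at 50 nM.

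KDM2A and KDM2B, H3K36 demethylases that bind CpG islands, were low mainly at 50 nM. KDM2A read 9.84 and 9.79 in DMSO, 9.64 and 9.90 at 5 nM and 8.36 and 8.69 at 50 nM, with the 5 nM arrays on both sides of DMSO. KDM2B read 8.36 and 8.37 in DMSO, 8.17 and 7.88 at 5 nM and 7.34 and 7.22 at 50 nM, and its fall at 5 nM did not pass without 5 nM replicate 2 (adjusted p = 0.089). KDM6B, which removes H3K27 trimethylation, changed side: it read 8.71 and 8.76 in DMSO, 9.03 and 9.31 at 5 nM and 8.21 and 8.35 at 50 nM. The change was 0.43 ± 0.10 at 5 nM and −0.46 ± 0.10 at 50 nM, and the contrast of doses was −0.89 ± 0.10 (adjusted p = 2.7e-05). KDM3A changed side too, by 0.27 ± 0.08 at 5 nM and −0.59 ± 0.08 at 50 nM, on arrays at 9.22 and 9.24 in DMSO, 9.57 and 9.43 at 5 nM and 8.68 and 8.60 at 50 nM. With ribosomal protein centring the rises at 5 nM did not pass, at 0.07 for KDM6B and −0.09, the other direction, for KDM3A. KDM3A at 5 nM also missed the threshold without DMSO replicate 1 or 5 nM replicate 1 (adjusted p = 0.088 at most). KDM4C, an H3K9 demethylase, read 6.61 and 6.55 in DMSO, 5.35 and 5.15 at 5 nM and 5.87 and 5.95 at 50 nM, the only demethylase that passed as higher at 50 nM than at 5 nM (0.66 ± 0.09). With a trend in gene span removed it did not pass (0.07). It was the dimmest of the 45 probe sets and the only one below the median gene of 7.45. KDM4A, its relative, and KDM1A (LSD1), which removes H3K4 mono- and dimethylation, fell at both doses by 0.38 to 0.69.

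The PRC2 genes did not move together. SUZ12, a scaffold subunit, read 10.57 and 10.47 in DMSO, 9.11 and 8.70 at 5 nM and 10.23 and 10.15 at 50 nM. It fell at 5 nM (−1.61 ± 0.14), did not pass at 50 nM (−0.33 ± 0.14, adjusted p = 0.068) and was 1.29 ± 0.14 higher at 50 nM than at 5 nM (adjusted p = 1.3e-05). EED, the subunit that binds trimethylated H3K27, went the other way between doses, with 8.47 and 8.41 in DMSO, 8.72 and 8.64 at 5 nM and 7.67 and 7.72 at 50 nM. Its contrast of doses was −0.99 ± 0.07 (adjusted p = 9.2e-07). The rise of EED at 5 nM, 0.24 ± 0.07, turned to −0.12 with ribosomal protein centring and did not pass without DMSO replicate 2 or 5 nM replicate 1 (adjusted p = 0.088 at most). EZH2, the main H3K27 methyltransferase of dividing cells, read 11.35 and 11.40 in DMSO, 10.11 and 10.24 at 5 nM and 10.57 and 10.56 at 50 nM, and fell by 1.20 ± 0.07 and 0.81 ± 0.07. Its paralogue EZH1, typical of resting cells, fell less, at 7.78 and 7.56 in DMSO, 7.29 and 7.06 at 5 nM and 7.41 and 7.28 at 50 nM. The fall of EZH1 at 50 nM (−0.32 ± 0.11, adjusted p = 0.036) did not pass without DMSO replicate 1, 50 nM replicate 1 or 50 nM replicate 2 (adjusted p = 0.24 at most).

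All 6 other histone methyltransferases fell at both doses. NSD1, an H3K36 methyltransferase, read 9.32 and 9.20 in DMSO, 7.04 and 7.24 at 5 nM and 8.01 and 8.09 at 50 nM. Its paralogue NSD2 read 8.98 and 8.80 in DMSO, 7.51 and 7.59 at 5 nM and 8.43 and 8.39 at 50 nM. Both lay lowest at 5 nM, NSD1 by 2.12 ± 0.09 and NSD2 by 1.34 ± 0.08 below DMSO, and were higher at 50 nM, by 0.91 ± 0.09 and 0.86 ± 0.08. SETD2, which trimethylates H3K36 behind RNA polymerase, read 9.81 and 9.84 in DMSO, 8.55 and 8.41 at 5 nM and 8.61 and 8.45 at 50 nM. The arrays of both doses overlapped for SETD2, with a difference of 0.05 (95% confidence interval −0.13 to 0.23). SETDB1, an H3K9 methyltransferase, read 9.05 and 8.94 in DMSO, 7.94 and 7.82 at 5 nM and 8.06 and 8.16 at 50 nM. DOT1L, the H3K79 methyltransferase, read 9.08 and 9.11 in DMSO, 8.11 and 8.10 at 5 nM and 8.29 and 8.44 at 50 nM. SETDB1 fell by 1.11 ± 0.08 and 0.88 ± 0.08 and DOT1L by 0.99 ± 0.07 and 0.73 ± 0.07, and for both the arrays of the 2 doses lay closer to each other than to DMSO. KMT2A (MLL1), which methylates H3K4, read 10.61 and 10.53 in DMSO, 9.77 and 9.96 at 5 nM and 9.37 and 9.41 at 50 nM. The platform names a second, dimmer probe set for KMT2A, which went the other way, at 6.95 and 6.58 in DMSO, 7.57 and 7.69 at 5 nM and 7.59 and 7.98 at 50 nM, so the 2 probe sets of KMT2A disagree. Their mean gave 0.08 at 5 nM.

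Both acetyltransferases, CREBBP and EP300, which acetylate H3K27 at enhancers, fell at each dose but in opposite order. CREBBP read 10.71 and 10.74 in DMSO, 8.57 and 8.64 at 5 nM and 9.10 and 9.14 at 50 nM. EP300 read 10.12 and 10.16 in DMSO, 8.79 and 8.82 at 5 nM and 8.31 and 8.34 at 50 nM. CREBBP stood 2.12 ± 0.07 below DMSO at 5 nM and EP300 1.33 ± 0.07 below. CREBBP was thus lower at 5 nM, by 0.51 ± 0.07 (adjusted p = 6.4e-05 for 50 nM against 5 nM), and EP300 lower at 50 nM, by 0.48 ± 0.07 (adjusted p = 9.7e-05). The contrast of doses for CREBBP did not pass with a trend in gene span removed (0.10, adjusted p = 0.22). The listed deacetylases, HDAC1, HDAC2 and HDAC3, differed from DMSO by −0.63 to 0.35. That range does not cover HDAC8, a class I deacetylase outside the list, with a mean of 7.25 at 5 nM and 8.99 at 50 nM. HDAC1 read 11.40 and 11.26 in DMSO, 11.06 and 10.99 at 5 nM and 11.66 and 11.57 at 50 nM. HDAC2 read 11.38 and 11.40 in DMSO, 10.77 and 10.75 at 5 nM and 11.23 and 11.17 at 50 nM. HDAC3 read 10.67 and 10.73 in DMSO, 10.66 and 10.45 at 5 nM and 11.12 and 10.98 at 50 nM. All 3 listed deacetylases were higher at 50 nM than at 5 nM, by 0.44 to 0.59. HDAC1 (0.28 ± 0.07) and HDAC3 (0.35 ± 0.09) rose above DMSO at 50 nM, rises that did not pass with ribosomal protein centring (0.01 and 0.08). The rise of HDAC1 did not pass without DMSO replicate 2 or 50 nM replicate 1, nor that of HDAC3 without 50 nM replicate 1, and the fall of HDAC2 at 50 nM (−0.19 ± 0.06) did not pass with any array left out (adjusted p from 0.054 to 0.14).

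The 45 genes are long, a property that the list did not use. Their spans in the RefSeq annotation run from 15.4 to 455 kb with a median of 83.9 kb, against 27.3 kb over 16897 protein-coding genes, and 40 of the 45 are longer than that median. Longer members had lower values, with a Spearman's rho across the 45 genes of −0.65 at 5 nM and −0.53 at 50 nM, against −0.52 and −0.29 across all genes. At 5 nM, 8 of the 15 shortest members, 14 of the middle 15 and 14 of the 15 longest were lower, where 29.2%, 75.5% and 91.3% of genes of the same span and above the median level were. At 50 nM these were 7, 13 and 13 of 15, where 40.5%, 50.4% and 54.4% were. The longest members had a median of −1.33 at 5 nM, against −1.24 for genes of that span, and of −1.08 at 50 nM, against −0.32. For 50 nM against 5 nM, rho was 0.13 across the 45 and 0.34 across all genes. The shortest, middle and longest members had medians of 0.23, −0.44 and 0.46 in that contrast. Genes of the same span and above the median level had −0.09, 0.35 and 0.88, and 25 of the 45 lay below the median of their span range. With the trend in span removed from each array, 35 of the 45 fell and 6 rose at 5 nM (median −0.53), where 25.5% of the 16897 genes fell and 28.1% rose, and 29 fell and 6 rose at 50 nM (median −0.56), where 22.5% fell and 30.9% rose. This step turned SMARCA2 (0.29), KDM2A (0.54) and KDM2B (0.31) positive at 5 nM, past the threshold, and the contrast of doses of ARID1B to −0.12, which did not pass. The falls of CHD2 (−0.17), CHD8 (−0.14) and SMARCC1 (−0.11) and the rise of KDM6B (0.24) at 5 nM no longer passed, nor did the falls of CHD4 (−0.13), SMARCA2 (−0.06), EZH1 (−0.19) and HDAC2 (−0.06) at 50 nM, nor the contrasts of doses of KDM4C (0.07), DOT1L (0.17) and CREBBP (0.10). The part of transcript length or promoter content in these changes was not tested.

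**Figure D3:**
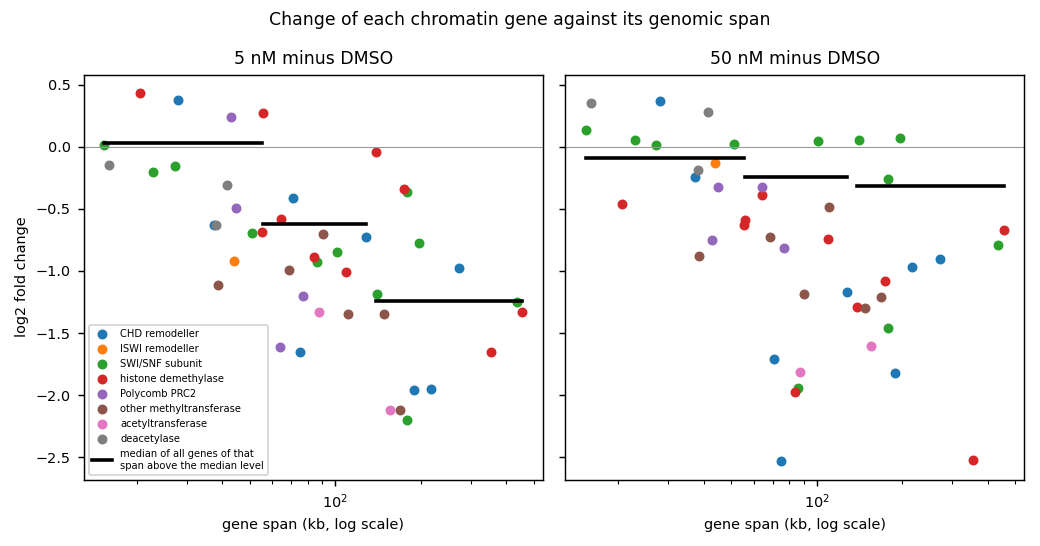
Log2 fold change of the 45 genes at 5 nM (left) and 50 nM (right) actinomycin D against DMSO, plotted against gene span in kb on a log axis and coloured by class. Black lines give the median of all genes above the median level in the span range of the 15 shortest, 15 middle and 15 longest members. Below the line of their span lie 33 of the 45 members at 5 nM and 34 at 50 nM, of the 15 shortest 12 at 5 nM and 8 at 50 nM, and of the 15 longest 9 at 5 nM and 12 at 50 nM.

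Knock-down of FLI1 moved fewer of the genes, and by less. With FLI1 shRNA 5 of the 45 were lower than with lacZ shRNA, 7 were higher and 33 did not pass, where 9.28% of all genes were lower and 14.6% higher. The shares, 11.1% and 15.6%, are close to those of all genes, dim ones included. With dim genes left out, 5 of 44 members were lower and 7 higher, where 15.3% of 11042 genes were lower and 24.1% higher. Both shares of the members thus lay below those of the brighter genes, a difference that was not tested. The median change was 0.05 against −0.01 over all genes. Of the 45, 0 passed the stricter 2-fold threshold in limma, where 0.598% of all genes did so downwards and 1.21% upwards. An unadjusted p under 0.05 was found for 17. By class, 5 of the 10 demethylases rose, while 2 of the 4 PRC2 genes, 2 of the 11 SWI/SNF subunits and 1 of the 6 other methyltransferases fell. The calls of SMARCC1, EZH2, NSD2, KDM4C and KDM5B, 5 of the 12, held with any of the 4 arrays left out. The counts were 3 lower and 3 higher without FLI1 shRNA replicate 1, 4 and 3 without FLI1 shRNA replicate 2, 3 and 5 without lacZ shRNA replicate 1, and 5 and 2 without lacZ shRNA replicate 2. Quantile normalization applied again turned the balance to 7 lower and 5 higher, removal of a trend in gene span gave 6 and 5, and eBayes with a trend and robust settings gave 7 and 10.

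**Figure D4:**
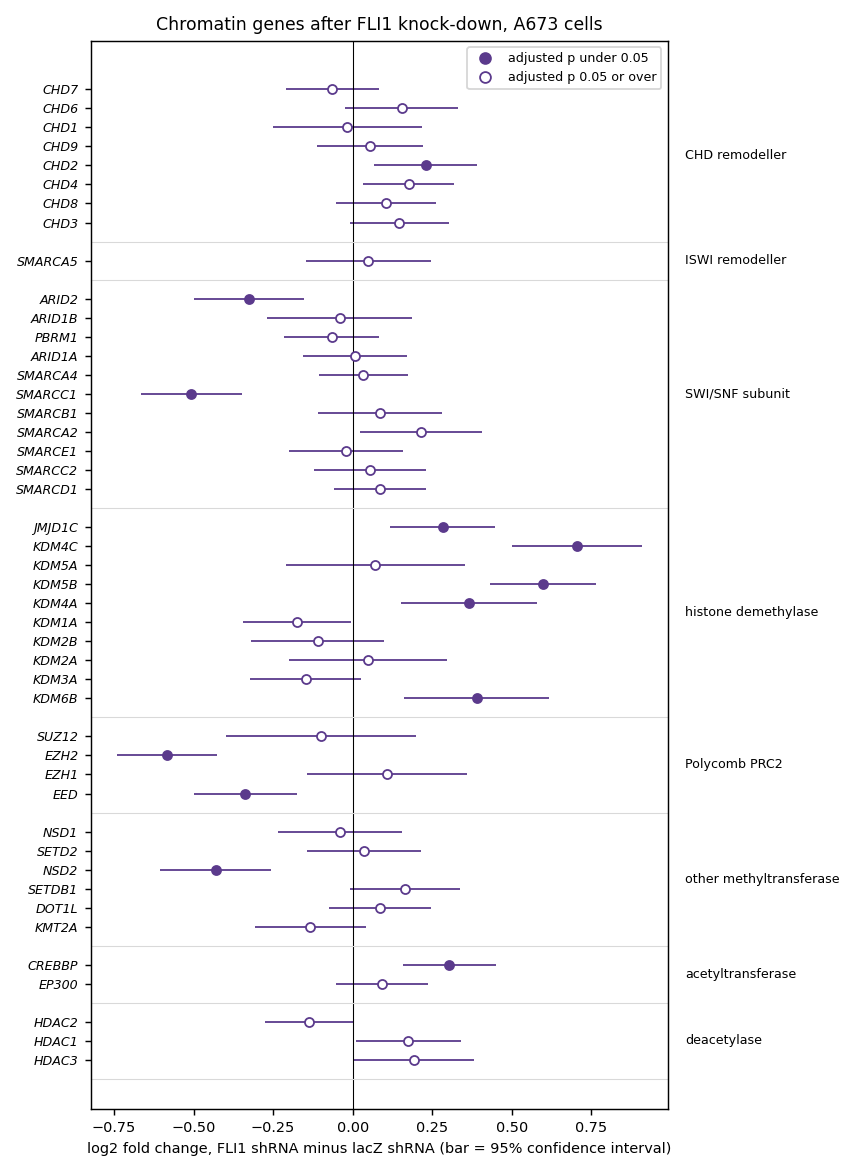
Log2 fold change of each of the 45 genes, FLI1 shRNA minus lacZ shRNA, 2 arrays a group, with its 95% confidence interval as a bar and filled points where the adjusted p was under 0.05. Filled points on the left are EZH2, SMARCC1, NSD2, EED and ARID2, and those on the right are KDM4C, KDM5B, KDM6B, KDM4A, CREBBP, JMJD1C and CHD2.

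EZH2, the catalytic subunit of PRC2, fell furthest of the 45, reading 10.77 and 10.81 with FLI1 shRNA, against 11.41 and 11.34 with lacZ shRNA. Both knock-down arrays lay below both controls, a change of −0.58 ± 0.07 (adjusted p = 0.00019) that left 66.7% of the control signal. EED fell with it, at 8.04 and 8.08 with FLI1 shRNA, against 8.44 and 8.35 with lacZ shRNA (−0.34 ± 0.07, adjusted p = 0.0071), although not without FLI1 shRNA replicate 1 or lacZ shRNA replicate 1 (adjusted p = 0.060 at most). SUZ12 (−0.10 ± 0.14) and the paralogue EZH1 (0.11 ± 0.11, on arrays at 7.69 and 7.67 with FLI1 shRNA, against 7.61 and 7.54 with lacZ shRNA) did not pass. SMARCC1, the BAF155 scaffold of SWI/SNF, read 10.45 and 10.52 with FLI1 shRNA, against 11.03 and 10.95 with lacZ shRNA. Its fall of 0.51 ± 0.07 (adjusted p = 0.00047) had no counterpart in SMARCC2, at 10.04 and 9.92 with FLI1 shRNA, against 9.96 and 9.88 with lacZ shRNA (0.05 ± 0.08). ARID2 read 10.31 and 10.34 with FLI1 shRNA, against 10.72 and 10.58 with lacZ shRNA (−0.33 ± 0.08, adjusted p = 0.011), a call that held only without lacZ shRNA replicate 2 among the left-out arrays. NSD2, the H3K36 dimethyltransferase, fell by 0.43 ± 0.08 (adjusted p = 0.0024), with 8.47 and 8.47 with FLI1 shRNA, against 8.93 and 8.89 with lacZ shRNA. NSD1 stood at −0.04 ± 0.09, at 9.19 and 9.15 with FLI1 shRNA, against 9.26 and 9.16 with lacZ shRNA. The arrays of NSD1 overlapped and those of NSD2 did not.

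Of the demethylases that rose, KDM4C changed most, at 7.14 and 7.13 with FLI1 shRNA, against 6.52 and 6.33 with lacZ shRNA. The difference of 0.71 ± 0.09 (adjusted p = 0.00029) put it at 163% of the control signal. KDM5B read 10.30 and 10.33 with FLI1 shRNA, against 9.75 and 9.69 with lacZ shRNA (0.60 ± 0.08, adjusted p = 0.00023), while KDM5A, at 8.93 and 8.93 with FLI1 shRNA, against 8.91 and 8.81 with lacZ shRNA, stood at 0.07 ± 0.13. KDM6B read 8.97 and 8.99 with FLI1 shRNA, against 8.65 and 8.53 with lacZ shRNA. KDM4A read 9.53 and 9.60 with FLI1 shRNA, against 9.28 and 9.13 with lacZ shRNA. Their arrays did not overlap, but the calls of both (0.39 ± 0.10 and 0.36 ± 0.10) held only without lacZ shRNA replicate 1 among the left-out arrays. JMJD1C (0.28 ± 0.07, adjusted p = 0.018) and CHD2 (0.23 ± 0.07, adjusted p = 0.044), which read 9.66 and 9.78 with FLI1 shRNA, against 9.53 and 9.45 with lacZ shRNA, passed with all arrays and not with any of them left out. The other demethylases, KDM1A, KDM2A, KDM2B and KDM3A, stood between −0.18 and 0.05. CREBBP read 10.73 and 10.73 with FLI1 shRNA, against 10.46 and 10.39 with lacZ shRNA (0.30 ± 0.07, adjusted p = 0.0070), and did not pass without lacZ shRNA replicate 2 (adjusted p = 0.058). EP300 read 10.19 and 10.21 with FLI1 shRNA, against 10.15 and 10.07 with lacZ shRNA (0.09 ± 0.07).

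The remaining genes did not pass after knock-down. Of the paralogue pairs, SMARCA4 stood at 0.03 and SMARCA2 at 0.21 (95% confidence interval 0.02 to 0.41, adjusted p = 0.10), ARID1A at 0.01 and ARID1B at −0.04, CHD3 at 0.15 and CHD4 at 0.18, and HDAC1 at 0.18 and HDAC2 at −0.14. HDAC3 stood at 0.19, and CHD1, CHD6, CHD7, CHD8 and CHD9 between −0.06 and 0.15. SMARCA5, SMARCB1, SMARCD1, SMARCE1 and PBRM1 stood between −0.07 and 0.09, and KMT2A, SETD2, SETDB1 and DOT1L between −0.13 and 0.16.

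Promoter windows are shown for the gene with the largest rise (KDM4C) and the largest fall (EZH2) after knock-down, since an ETS factor was lowered. Capitals mark CCGGAA, the ETS core with its usual flank, on either strand, in the 250 bases before the start, from RefSeq on GRCh38.p14, 5′ to 3′ on the gene's strand (chr9:6757723-6757972, plus strand; chr7:148884292-148884541, minus strand). The KDM4C start is an internal one, the only start of that gene in the table.
KDM4C: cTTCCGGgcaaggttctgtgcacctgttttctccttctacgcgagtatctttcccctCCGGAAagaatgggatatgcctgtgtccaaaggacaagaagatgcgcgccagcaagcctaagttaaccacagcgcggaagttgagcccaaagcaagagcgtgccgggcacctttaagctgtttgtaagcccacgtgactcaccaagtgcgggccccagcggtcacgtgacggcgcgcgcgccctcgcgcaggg
EZH2: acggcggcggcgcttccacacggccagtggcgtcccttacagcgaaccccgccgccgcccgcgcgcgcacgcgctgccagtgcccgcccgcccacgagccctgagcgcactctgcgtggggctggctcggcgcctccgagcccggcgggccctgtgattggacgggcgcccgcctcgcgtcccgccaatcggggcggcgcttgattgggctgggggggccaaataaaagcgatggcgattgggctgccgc
The KDM4C window holds the motif in each orientation and that of EZH2 does not hold it. Over the 63 windows of the 39 genes, searched on both strands, 14 (22.2%) hold CCGGAA, against 17.2% of all promoters, and the motif does not overlap ATGCAT. Among the genes that changed after knock-down with a window in the table, KDM4C alone holds it, and genes that did not pass, such as KDM5A, SMARCD1, SETDB1, KDM2B, HDAC1 and CHD4, hold it too. A match is no evidence of binding.

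The response to knock-down was set against that to 5 nM actinomycin D over 4 separate groups. The 2 responses also differ in time (48 h against 24 h) and in lentiviral infection with puromycin selection. Agent, time and infection cannot be told apart in this comparison. For 36 of the 45 genes the change with FLI1 shRNA lay above that with 5 nM, for 2 it lay below, and 7 did not pass, where 22.8% of all genes lay above and 23.7% below. With dim genes left out, 35 of 44 lay above and 3 below, where 35.6% of 11042 genes lay above and 31.0% below. The difference was larger in longer genes, with a Spearman's rho of 0.59 across the 45 and 0.51 across all genes. The 15 shortest, 15 middle and 15 longest members had medians of 0.48, 0.93 and 1.38. Genes of the same span and above the median level had 0.03, 0.72 and 1.38. The largest differences were in CREBBP (2.43 ± 0.09), CHD6 (2.10 ± 0.11), NSD1 (2.08 ± 0.12) and KDM4C (2.04 ± 0.13), each of which fell at 5 nM and did not fall after knock-down. EED (−0.58 ± 0.10) and KDM3A (−0.42 ± 0.11) lay below, and neither passed with ribosomal protein centring (−0.20 and −0.04). KDM6B, which rose in both, showed a difference of −0.04 (95% confidence interval −0.37 to 0.28). EZH2, NSD2, ARID2 and SMARCC1 fell in both, and further at 5 nM, by 0.62, 0.91, 1.87 and 0.27. The difference for SMARCC1 (adjusted p = 0.049) did not pass without DMSO replicate 1, DMSO replicate 2, 5 nM replicate 2, FLI1 shRNA replicate 1, FLI1 shRNA replicate 2 or lacZ shRNA replicate 2 (adjusted p = 0.16 at most), nor did that for HDAC3 (0.34 ± 0.12). With the span trend removed the difference for SMARCC1 turned to −0.50 and that for EZH2 (0.25, adjusted p = 0.072) did not pass. In that setting 32 of the 45 lay above and 5 below, where 22.9% of 16897 genes lay above and 23.1% below.

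Between DMSO and untreated cells no difference in the 45 genes was detectable with these arrays. Of the 45, 0 passed in limma and 5 had an unadjusted p under 0.05, where 0.00543% of all genes, 1 gene, passed. CHD1 differed most, at 9.98 and 10.00 in DMSO, against 9.68 and 9.72 in untreated cells (0.29 ± 0.11, adjusted p = 0.61). Vehicle and 24 h in culture cannot be told apart in this comparison.

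Other chromatin genes, 147 measured of 158 listed in 7 groups, were set beside the 45. At 5 nM 74 fell (50.3%, against 23.0% of all genes) and 39 rose (26.5%, against 30.3%), with a median of −0.24, and at 50 nM 82 fell (55.8%, against 23.3%) and 13 rose (8.84%, against 25.8%), with a median of −0.28. Of the further remodellers and NuRD partners 19 of 25 fell at 5 nM and 0 rose, and of the further demethylases 9 of 12 fell and 2 rose. The remaining groups were more mixed at 5 nM. Of 15 further SWI/SNF subunits 5 fell and 7 rose, and of 32 further methyltransferases and partners 14 fell and 13 rose. Polycomb genes (11 and 6 of 22), acetyltransferases and readers (9 and 6 of 21) and deacetylases and corepressors (7 and 5 of 20) were also split. Among the remodellers was ATRX, which deposits histone H3.3 at repeats (mean log2 signal 7.27 at 5 nM, against 9.27 in DMSO). At 50 nM ATRX stood 1.85 ± 0.11 above its 5 nM level. KMT2C, an enhancer H3K4 methyltransferase, fell at 5 nM (−2.50), as did JARID2, a partner of PRC2 (−2.52), and KDM6A, the relative of KDM6B (−1.99). The largest rise of the 147 at 5 nM was 1.33. The stricter threshold was met there by 42 genes downwards and 2 upwards. KMT2E, an MLL relative, fell by 2.05 at 50 nM. Between doses 51 of the 147 were higher at 50 nM and 51 lower, with SUV39H1, an H3K9 methyltransferase, 1.79 lower and NCOA1, a coactivator, 1.90 higher. After FLI1 shRNA 16 fell and 25 rose, 10.9% and 17.0%, near the 9.28% and 14.6% of all genes. HELLS, a remodeller of dividing cells, fell by 1.18 (mean 7.98 with FLI1 shRNA, against 9.16 with lacZ shRNA), as did DPF3, a tissue-specific SWI/SNF subunit, by 1.09. The largest rise after FLI1 shRNA was that of KAT2B, by 0.70 (mean 7.53, against 6.82 with lacZ shRNA).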

How the data were processed

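RNA of A673 cells was measured on 12 Affymetrix Gene 1.0 ST arrays, 2 in each of 6 groups taken from the sample labels. Deposited were log2 values, made by the authors through RMA (background correction, quantile normalization and summary per probe set) in affy (version not given in the sources used here). No raw scan was used here and 0 value columns lacked a sample. Of 32321 rows, 19158 are paired by the platform table with 1 gene symbol, 1388 with several and 11775 with none. Only the first kind was used, with symbols updated through the Entrez identifier to the RefSeq table of GRCh38.p14 and with the probe set of highest mean standing for the 637 genes that have several, which left 18404 genes.

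Group means were fitted over all 12 arrays with limma 3.58.1 in R 4.3.3 (eBayes, 6 residual and 4.45 prior degrees of freedom), and p-values were adjusted by Benjamini-Hochberg over all genes of a comparison. The fit was tested on simulated data. A threshold of more than 2-fold with an adjusted p under 0.01, as in the study's methods, was also counted. Per-array values are given for up to 4 members of a class with the largest changes in a comparison whose arrays do not overlap, and for paralogue pairs. Members, classes and the list of other chromatin genes were chosen with earlier results of these data known. Alternatives were the replicate number as a block, only the arrays of a comparison, genes below the 40th percentile left out, the mean over probe sets, a second quantile step, centring by 59 genes of ribosomal proteins, robust eBayes with a trend, removal of a loess trend in gene span from each array, and each array left out. Promoter sequences are from RefSeq. With 2 arrays a group, their number limits the precision.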

Additional observations from a re-analysis of the deposited data

How the results depend on the processing

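Each value was recomputed with 1 choice changed. Quantile normalization applied again moved the median of the 45 genes to 0.00519 for FLI1 shRNA against lacZ shRNA, −0.75 at 5 nM, −0.51 at 50 nM and 0.76 for the difference between knock-down and 5 nM. Ribosomal protein centring left 0 genes higher at 5 nM and at 50 nM and 0 lower in the difference between knock-down and 5 nM, and gave medians of −1.21 at 5 nM, −0.997 at 50 nM, 0.29 for 50 nM against 5 nM, 0.00875 for DMSO against untreated cells and 1.29 for the difference. It turned SMARCD1 (−0.35), KDM3A (−0.0939) and EED (−0.12) at 5 nM, and at 50 nM SMARCA4 (−0.23), SMARCB1 (−0.25), SMARCC1 (−0.20), SMARCC2 (−0.26), SMARCE1 (−0.22) and PBRM1 (−0.21). Removing the span trend gave medians of −0.0049 after knock-down, −0.53 at 5 nM, −0.56 at 50 nM and 0.45 for the difference, with 6 genes higher at 50 nM and 5 lower in the difference. It turned SMARCA2 (0.29), SMARCD1 (−0.24), KDM2A (0.54) and KDM2B (0.31) at 5 nM, for 50 nM against 5 nM CHD3 (0.18), CHD7 (−0.33), CHD9 (−0.46), SMARCA2 (−0.35), ARID1B (−0.12) and SETD2 (−0.35), and in the difference SMARCA2 (−0.17), SMARCC1 (−0.50), KDM2A (−0.58) and KDM2B (−0.52). The mean over probe sets turned KMT2A at 5 nM (0.0756) and in the difference (−0.15) and gave a median of −0.67 at 50 nM. Fitting a comparison's own arrays alone gave 2 genes higher at 5 nM. The cause of these shifts was not tested.

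With single arrays left out, the genes lower after knock-down numbered 3 to 5 and those higher 2 to 5, those higher at 5 nM 2 (without 5 nM replicate 1) to 4 and at 50 nM 1 (without 50 nM replicate 1) to 3. Medians ran from −0.85 to −0.80 at 5 nM, from −0.72 to −0.65 at 50 nM, from 0.11 (without 5 nM replicate 2) to 0.28 for 50 nM against 5 nM and from 0.0202 to 0.0837 for DMSO against untreated cells. A lone array is assumed to vary like the other groups. Arrays with the same number share only that number, with correlations of their deviations from −0.45 to 0.34 over 15 pairs of groups. With the number as a replicate block 5 genes were lower and 6 higher after knock-down, 36 and 4 at 5 nM, 33 and 3 at 50 nM and 13 and 20 for 50 nM against 5 nM. The crossed pairing, chosen after seeing the data, gave 5 and 6 after knock-down and 0 and 0 for DMSO against untreated cells. KDM4C is not tested when dim genes are left out.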
